A study of Mus musculus with 2 samples.

Results

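The genes described here are 33 enzymes and regulators of glycolysis and glycogen turnover, found by symbol among 55536 annotated mouse gene identifiers. All 33 symbols were present. The set holds 16 glycolytic enzyme genes from glucose-6-phosphate isomerase to pyruvate kinase, 4 PFKFB genes and 13 glycogen genes. The study measured total RNA of heart tissue in a single group of 2 libraries, replicates 1 and 2, from male mice of the hybrid B6CASTF1/J at 14 days of age. Each library started from 300 ng of RNA and carried ERCC spike-ins, which are synthetic RNAs added in known amounts. The labels name no treatment, mutant or other tissue. The labels give both libraries the same donor entry and speak of 3 males, and do not say whether a library holds RNA of 1 animal or of a pool. Every value after ± is an SD over these 2 libraries (n = 2), a spread that may be technical.

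Glycolysis splits glucose into pyruvate in the cytosol, and most of its steps are carried out by families of enzymes in which 1 gene is the muscle form and others serve liver, brain or dividing cells. Glycogen is the stored polymer of glucose. Glycogen synthase and the branching enzyme build it on a glycogenin core, and glycogen phosphorylase starts its breakdown. The adult heart lives mainly on fatty acids but keeps glycolysis and a glycogen store as a quick source of ATP.

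The libraries held 39334380 expected counts in replicate 1 and 46391250 in replicate 2, of which 0.517% and 0.531% were spike-ins. Levels are in TPM, a measure of transcript abundance that divides reads by transcript length and library size. The main values come from a gene table laid out as the program RSEM writes it (RSEM-style). Another table, laid out as kallisto writes it (kallisto-style), divides the reads of the same libraries over transcripts in its own way. The tables also differ in the length that reads are divided by. It is shorter than the transcript, typically by 99 bases in the RSEM-style table. In the kallisto-style table it is typically shorter by 332 bases in replicate 1 and 336 in replicate 2. All 7 cardiomyocyte markers were at 386 TPM or more. Red blood cell markers were also high (summed TPM 18882 and 18200.0), while all 4 liver markers were below 1 TPM in both libraries. Of 10 skeletal muscle markers, 7 were below 1 TPM in both libraries and Myh1 and Myh2 were at 0. The summed TPM of that list (1680.5 and 1702) came almost wholly from Ckm, which heart also expresses. Atrial markers were higher in replicate 1 (summed TPM 1585 against 492) and thymocyte markers in replicate 2 (0.860 against 31.8). In bulk tissue, fewer cells of a type and less RNA per cell cannot be told apart.

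Of the 33 genes, 28 (84.8%) reached 1 TPM in both libraries, 23 reached 10 TPM and 11 reached 100 TPM. Their median was 37.6 TPM in replicate 1 and 40.3 TPM in replicate 2. Of all 22015 nuclear protein-coding genes, 51.8% reached 1 TPM and 2.54% reached 100 TPM, with medians of 1.42 and 1.53 TPM. Aldoc, Pklr, Pfkfb4 and Gys2 were below 1 TPM in both libraries, and Pfkfb1 passed 1 TPM in replicate 2 only. Together the 33 genes took 0.671 ± 0.00462% of all TPM and 1.59% of what nuclear protein-coding genes held. The glycolytic enzymes accounted for 0.589% of all TPM, the glycogen genes for 0.0795% and the PFKFB genes for 0.00315%. By the kallisto-style table, the share of the 33 genes was 1.04 ± 0.0311% of all TPM.

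**Figure D1:**
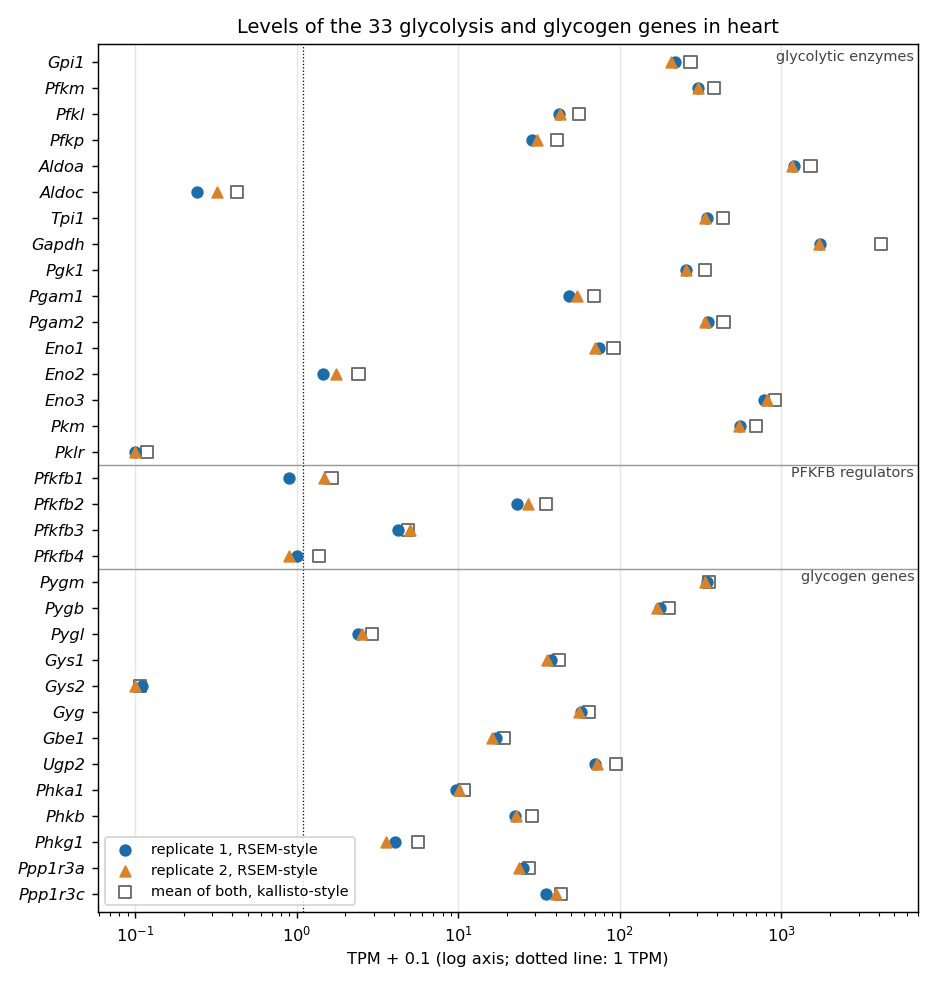
Level of each gene, with TPM + 0.1 on a log axis and genes in pathway order within 3 blocks. Circles and triangles are replicates 1 and 2 of the RSEM-style gene table, squares are the mean of both libraries in the kallisto-style table, and the dotted line marks 1 TPM. The replicates overlap for most genes, Gapdh is the highest in both tables, and Aldoc, Pklr and Gys2 lie far to the left.

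Summed over the genes of each step, glycolytic levels spanned from 214 ± 7.94 TPM for the isomerase to 1710.2 ± 12.8 TPM for glyceraldehyde-3-phosphate dehydrogenase. Between them, in falling order, stood aldolase (1181 ± 17.5), enolase (867 ± 17.1), pyruvate kinase (547 ± 4.69), phosphoglycerate mutase (394 ± 8.65), phosphofructokinase (376 ± 0.806), triosephosphate isomerase (341 ± 8.53) and phosphoglycerate kinase (257 ± 1.55). The 2 values of a step did not overlap those of its neighbours. The closest neighbours were the mutase (400.5 and 388 TPM) and phosphofructokinase (375 and 376 TPM). The kallisto-style table gave the same order. With protein-coding transcripts only, glyceraldehyde-3-phosphate dehydrogenase stood at 459 ± 15.5 TPM, below aldolase, enolase and pyruvate kinase, and with counts per kb of the longest coding transcript it was below aldolase (567 ± 2.58 against 836 ± 12.2 counts per kb, scaled to library size).

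Gpi1, the isomerase that turns glucose-6-phosphate into fructose-6-phosphate, lies on chromosome 7 (34201330 to 34230336, minus strand) and was at 219 TPM in replicate 1 and 208 TPM in replicate 2. Only 60 ± 1.63% of its TPM was in protein-coding transcripts. The transcripts Gpi1-207 and Gpi1-208, both annotated as targets of nonsense-mediated decay, held 18.3 ± 0.424% and 11.6 ± 1.04%. By the kallisto-style table, Gpi1-207 had 35.0% and Gpi1-208 had 0.0529%, so the 2 tables divided these reads differently.

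Phosphofructokinase commits sugar to glycolysis and is built from muscle (Pfkm), liver (Pfkl) and platelet (Pfkp) subunits. Pfkm (chromosome 15, 98092589 to 98132451, plus strand) was at 305 and 303 TPM. Pfkl was at 41.9 and 42.7 TPM and Pfkp at 28.3 and 30.6 TPM. The muscle subunit thus made up 80.9 ± 0.531% of phosphofructokinase TPM, with 11.3% for Pfkl and 7.84% for Pfkp. Ratios between genes were taken within each library on the scale of TPM + 0.1. The log2 ratio of Pfkm was 2.84 ± 0.02 over Pfkl (7.17-fold) and 3.36 ± 0.09 over Pfkp (10.3-fold). The nonmuscle subunits were closer to each other, with a log2 ratio of Pfkl over Pfkp of 0.52 ± 0.06.

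Most of the TPM of Pfkm was in 2 transcripts with separate starts. Pfkm-201 held 42.3 ± 1.12% of its TPM and Pfkm-205 held 40.1 ± 0.704%. Their starts lie 15822 bases apart and their coding parts are identical (2340 bases). By the kallisto-style table the shares were 44.6 ± 0.976% and 28.5 ± 0.756%. The rest was given to the 438-base Pfkm-203 in the RSEM-style table (17.6%) and to the 785-base Pfkm-204 in the kallisto-style table (26.9%), each of which was at 0 in the other table.

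Aldoa, the aldolase of muscle and red cells, was the highest glycolytic gene after Gapdh, at 1193 and 1169 TPM (chromosome 7, 126795234 to 126800751, minus strand). The brain form Aldoc was at 0.140 and 0.220 TPM, from 6 and 12 counts. The log2 ratio of Aldoa over Aldoc was 12.06 ± 0.31 on the scale of TPM + 0.1. A second identifier of the same symbol held 0.400 and 0.170 TPM and was left out. Aldoa-201 had 94.4 ± 2.25% of the gene's TPM in the RSEM-style table and 58.5 ± 0.655% in the kallisto-style table, where Aldoa-202 had 26.5%.

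Tpi1, which interconverts the triose phosphates, was at 347 and 335 TPM, with 99.1% of it in protein-coding transcripts. Pgk1, the first ATP-yielding enzyme of the pathway, is X-linked and was at 256 and 258 TPM. Of the 31-base words in Pgk1 transcripts, 68.3% also occurred in other genes, which makes the division of its reads uncertain. The processed pseudogene Gm5537 carried 68.1% of them and was listed at 22.6 and 16 TPM.

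Gapdh, which makes NADH and is often used as a reference gene, was at 1719 and 1701 TPM (chromosome 6, 125161715 to 125166467, minus strand). The kallisto-style table gave 3955 and 4319.9 TPM, 2.42 times as much. Over the 28 genes detected, that ratio between tables had a median of 1.27, and the next highest was 1.54 for Eno2. Over 11408 nuclear protein-coding genes at 1 TPM or more the median was 1.20.

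The tables also assigned Gapdh reads to different transcripts. In the RSEM-style table, the 483-base noncoding Gapdh-208 held 72.9 ± 0.683% of the gene's TPM with 14626 and 17566 counts, while the full-length Gapdh-201 (1272 bases) held 25.8% with 16216 and 18540 counts. The kallisto-style table put 0.343 and 0 TPM in Gapdh-208 and 0 in Gapdh-201. There, Gapdh-207 (471 bases) had 47.8%, Gapdh-203 (1420 bases) 26.3% and Gapdh-209 (482 bases) 20.6%. A read given to a short transcript adds more TPM than the same read given to a long one. More bases are taken off each length in the kallisto-style table, which weighs most on short transcripts. The part of this in the difference between the tables was not tested. Gapdh also shared 62.6% of its 31-base words with other genes, 95 of which held at least 10% of them. The genes sharing words summed to 73.0 and 87.1 TPM. Of those with at least 50% of the words, the highest were the pseudogenes Gm7336 (16.2 and 15.4 TPM) and Gm10359 (3.03 and 9.39 TPM). Just under 50%, Gm13394 was at 8.93 and 10.3 TPM, Gm14760 at 1.75 and 15.4 TPM and Gm12070 at 5.61 and 0 TPM.

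**Figure D2:**
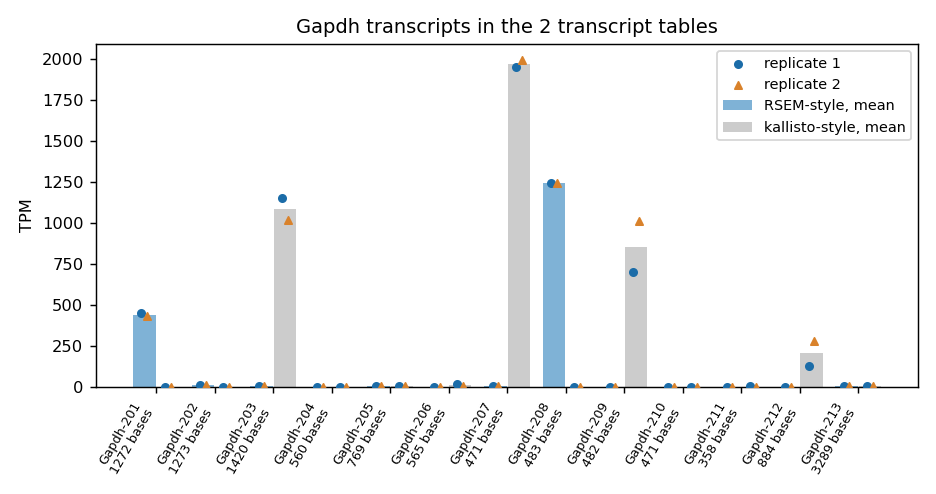
TPM of the Gapdh transcripts (vertical axis) with their lengths in bases. Blue and grey bars are the means of both libraries in the RSEM-style and kallisto-style tables, and circles and triangles are replicates 1 and 2. The tables share no high transcript: Gapdh-201 and Gapdh-208 carry the RSEM-style TPM and Gapdh-203, Gapdh-207 and Gapdh-209 most of the kallisto-style TPM.

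Phosphoglycerate mutase moves a phosphate within the glycolytic intermediate and has a muscle form, Pgam2, and a form of most other tissues, Pgam1. Pgam2 (chromosome 11, 5801640 to 5803733, minus strand) was at 352 and 334 TPM, and Pgam1 at 48.5 and 53.9 TPM. Pgam2 made up 87.0 ± 1.26% of the step, a log2 ratio of 2.74 ± 0.16 (6.70-fold). Pgam2 has a single annotated transcript and shared none of its 31-base words with another gene, whereas Pgam1 shared 42.1%. The copy Pgam1-ps2 was at 3.53 and 4.98 TPM, and with it added to Pgam1 the log2 ratio was 2.63.

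The start regions of the genes were read from RefSeq (GRCm38.p6), which matched 32 of the 33 symbols with 49 promoters. The site bound by MEF2 factors, regulators of muscle genes, was searched on both strands of the 250 bases before each start. It occurred before 1 start each of Pgam2, Ppp1r3a and Pfkfb1, or in 6.12% of the 49 promoters against 2.92% of all 32851 promoters. With only 3 matches, no excess over the background is shown. The E-box letters CANNTG occurred in 67.3% of the 49 and in 66.2% of all, which is near the background. A match of letters does not show that a factor binds. The regions of Pgam2 and of the glycogen targeting gene Ppp1r3a are shown because both are muscle forms detected here. They are chr11:5803797-5804046 and chr6:14755275-14755524, both on the minus strand, printed 5′ to 3′ with the MEF2 match in capitals.
Pgam2 upstream: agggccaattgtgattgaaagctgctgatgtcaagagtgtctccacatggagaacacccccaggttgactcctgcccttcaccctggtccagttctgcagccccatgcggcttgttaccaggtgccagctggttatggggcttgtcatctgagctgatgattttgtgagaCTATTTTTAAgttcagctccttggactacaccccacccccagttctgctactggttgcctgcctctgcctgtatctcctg
Ppp1r3a upstream: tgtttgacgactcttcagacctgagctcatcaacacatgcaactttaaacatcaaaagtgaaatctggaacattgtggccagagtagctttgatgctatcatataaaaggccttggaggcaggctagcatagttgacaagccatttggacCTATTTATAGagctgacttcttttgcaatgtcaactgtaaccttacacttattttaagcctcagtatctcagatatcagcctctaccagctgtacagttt

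Enolase makes phosphoenolpyruvate, and its subunits are named for muscle (Eno3), neurons (Eno2) and general use (Eno1). Eno3 (chromosome 11, 70657202 to 70662513, plus strand) was at 779.6 and 808 TPM, Eno1 at 74.3 and 69.6 TPM and Eno2 at 1.35 and 1.65 TPM. Eno3 accounted for 91.5 ± 0.531% of enolase TPM. Its log2 ratio was 3.46 ± 0.10 over Eno1 (11-fold) and 8.96 ± 0.16 over Eno2. Eno1 is listed beside Eno1b, a gene that holds 52.3% of its 31-base words and was at 28.0 and 29.5 TPM. With the copies of at least 20% shared words added to Eno1, Eno3 was still higher, at a log2 ratio of 2.79. Eno3-201 and Eno3-202 have the same coding parts and starts 2 bases apart, and the tables divided them differently (45.5% and 37.5% against 12.8% and 78.2%).

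Pyruvate kinase ends the pathway and yields ATP. Pkm was at 551 and 544 TPM (chromosome 9, 59656368 to 59679375, plus strand), with 35434 and 41541 counts. Pklr, the liver and red cell gene, had 0 counts in both libraries. A count of 3 would have given 0.0350 TPM in replicate 1 and 0.0292 TPM in replicate 2, so Pkm was at least 15747-fold higher in replicate 1 and at least 18636-fold higher in replicate 2, counting error only.

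Pkm makes 2 enzymes from 1 gene by using either of 2 adjacent exons. The M1 exon is typical of adult muscle and brain, and the M2 exon of embryonic and dividing cells. The exons are the single pair of mutually exclusive internal exons of equal length with common neighbours in the annotation. They lie in mm10 at chr9:59675029-59675195 (M1, in Pkm-202) and chr9:59675568-59675734 (M2, in Pkm-201), on the plus strand. Each is 167 bases long, 103 bases (61.7%) are identical and 64 differ. Both are coding exons, printed 5′ to 3′ with the differing bases in capitals, since reads over these bases tell the forms apart.
Pkm M1 exon: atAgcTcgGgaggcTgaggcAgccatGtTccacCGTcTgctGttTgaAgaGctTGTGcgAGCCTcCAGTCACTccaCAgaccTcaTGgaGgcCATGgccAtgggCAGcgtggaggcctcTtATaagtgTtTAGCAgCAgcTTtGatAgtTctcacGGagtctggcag
Pkm M2 exon: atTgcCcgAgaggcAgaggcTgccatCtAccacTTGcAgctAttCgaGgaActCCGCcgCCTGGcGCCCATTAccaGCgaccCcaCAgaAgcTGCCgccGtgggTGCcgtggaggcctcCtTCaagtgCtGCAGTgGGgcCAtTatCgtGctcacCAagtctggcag

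Both forms were present in both libraries. The M1 transcript Pkm-202 was at 279.7 and 294 TPM, and the M2 transcript Pkm-201 at 259 and 235 TPM. Transcripts with the M1 exon held 51.6% and 54.5% of Pkm TPM (53.1 ± 2.06%), those with the M2 exon 47.0% and 43.3% (45.1 ± 2.65%), and those with neither 1.77%. In both libraries M1 was higher than M2 by this measure, and the order differed under other measures. By expected counts, M1 held 47.2% in replicate 1 and 50.5% in replicate 2 (48.9 ± 2.38%), with M2 at 50.3 ± 2.62%. Counts are not divided by transcript length, and the longer Pkm-201 (2432 bases, against 2041 for Pkm-202) draws more of them at equal abundance.

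In the kallisto-style table, M1 had 44.8 ± 1.02%, M2 45.1 ± 3.83% and transcripts with neither exon 10.2 ± 2.81%. The last were mostly the 725-base Pkm-206, at 52.0 and 79.8 TPM there and 0.960 and 1.77 TPM in the RSEM-style table. Over the full-length Pkm-201 and Pkm-202 alone, M1 was 53.7 ± 2.55% in the RSEM-style table and 49.6 ± 2.81% in the kallisto-style table. The transcripts differ beyond the exon: of the bases of Pkm-201, 558 are absent from Pkm-202, and their starts are 205 bases apart. Across the measures M1 was from 44.8% to 53.7%, so that neither form was shown to exceed the other.

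**Figure D3:**
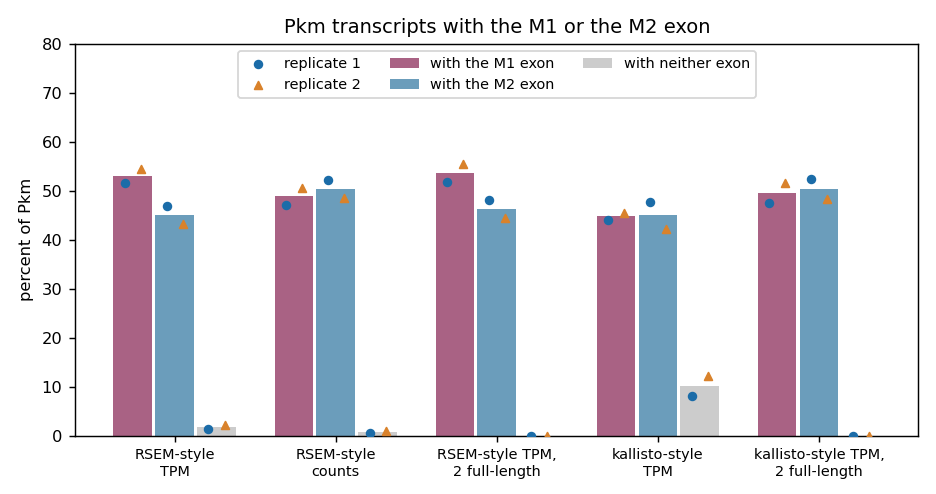
Percent of Pkm in transcripts with the M1 exon, the M2 exon or neither (vertical axis) by table and unit. Bars are means of both libraries, and circles and triangles are replicates 1 and 2. The M1 and M2 bars lie between 44.8% and 53.7% in every set, and their order differs between sets.

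The PFKFB enzymes set the level of fructose-2,6-bisphosphate, the activator of phosphofructokinase. Pfkfb2, known as the heart form, was at 23.0 and 27.0 TPM and made up 79.5 ± 0.326% of the family. The inducible Pfkfb3 was at 4.15 and 4.90 TPM, Pfkfb1, the liver and skeletal muscle gene, at 0.8 and 1.37 TPM, and Pfkfb4, known from testis, at 0.910 and 0.790 TPM. The log2 ratio of Pfkfb2 was 2.44 ± 0.01 over Pfkfb3, 4.44 ± 0.34 over Pfkfb1 and 4.72 ± 0.29 over Pfkfb4. Pfkfb2 TPM was divided over several transcripts, with 41.8 ± 1.55% in Pfkfb2-203 (1554 coding bases) and 18.2 ± 1.41% in Pfkfb2-204 (1419 coding bases). In the kallisto-style table these had 26.8 ± 0.993% and 3.15 ± 1.21%, and Pfkfb2-211, with the same coding parts as Pfkfb2-204, had 21.2 ± 1.39%. Pfkfb1 rested on 32 and 60 counts and Pfkfb4 on 64 and 74.

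Glycogen phosphorylase, which frees glucose-1-phosphate from glycogen, was the most abundant glycogen enzyme. Pygm, the muscle form (chromosome 19, 6384399 to 6398459, plus strand), was at 346 and 338 TPM. Pygb, the brain form, was at 176 and 169 TPM, and Pygl, the liver form, at 2.30 and 2.43 TPM. Pygm thus held 66.1 ± 0.201% of phosphorylase TPM and Pygb 33.4 ± 0.228%. The log2 ratio of Pygm over Pygb was 0.99 ± 0.01 (1.98-fold), against 2.74 ± 0.16 for the mutase pair and 3.46 ± 0.10 for Eno3 over Eno1. The ratio was 0.82 ± 0.03 in the kallisto-style table and 0.80 ± 0.06 with protein-coding transcripts only. A 532-base retained-intron transcript, Pygm-203, held 15.9 ± 2.02% of Pygm TPM in the RSEM-style table and 9.32 ± 4.78% in the kallisto-style table.

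Glycogen synthase was lower. Gys1, the muscle form (chromosome 7, 45434844 to 45456619, plus strand), was at 37.6 and 35.3 TPM, with 3978 and 4490 counts. The liver form Gys2 had 1 count in replicate 1 and 0 in replicate 2. Over both libraries, the length-scaled ratio of Gys1 to Gys2 was 6117, with an exact 95% counting interval from 1098 to 241649. Pygm exceeded Gys1 by a log2 ratio of 3.23 ± 0.04 (9.36-fold), a comparison of RNA levels and not of enzyme activity.

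Glycogenin (Gyg), the protein core of a glycogen particle, was at 57.1 and 55.9 TPM. Its main transcript differed by table: Gyg-203 (999 coding bases) had 95 ± 0.916% in the RSEM-style table, while Gyg-201 (1131 coding bases) had 74.1 ± 9.49% in the kallisto-style table. Ugp2, which makes UDP-glucose for the synthase, was at 69.9 and 71.7 TPM. It was divided almost evenly over Ugp2-201 (51.5 ± 0.254%) and Ugp2-202 (48.1 ± 0.0272%), which code for 1491 and 1524 bases. In the kallisto-style table these had 62.4% and 25.2%.

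The branching enzyme Gbe1 was at 16.9 and 16 TPM, below Gys1 by a log2 ratio of -1.14 ± 0.01. In the RSEM-style table, the division over its transcripts differed between the libraries. Gbe1-201 had 20.6% of it in replicate 1 and 65.6% in replicate 2, and Gbe1-206, with the same coding parts, had 42.9% and 0%. The kallisto-style table put 97.4 ± 0.475% in Gbe1-203 and 0 TPM in Gbe1-201 in both libraries.

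Phosphorylase kinase switches phosphorylase on and has regulatory alpha and beta subunits and a catalytic gamma subunit. The muscle alpha gene Phka1 was at 9.64 and 10 TPM against 6.98 and 6.71 for the liver gene Phka2, a log2 ratio of 0.51 ± 0.08. Phkb, the beta gene, was at 22.4 and 22.5 TPM, of which 43.3 ± 0.160% was in the full-length Phkb-201. For the catalytic subunit the order was turned. The muscle gene Phkg1 was at 3.96 and 3.49 TPM and the liver and testis gene Phkg2 at 8.79 and 8.29 TPM, a log2 ratio of Phkg1 over Phkg2 of -1.18 ± 0.07. Its sign was the same by the kallisto-style table (-0.74 ± 0.23), by protein-coding transcripts only (-0.41 ± 0.21) and per kb (-0.82 ± 0.01), where it was under 1 in size.

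Ppp1r3a and Ppp1r3c carry protein phosphatase 1 to glycogen, where it switches synthase on and phosphorylase off. The muscle gene Ppp1r3a was at 25.2 and 23.6 TPM and Ppp1r3c at 34.8 and 40.3 TPM. The log2 ratio of Ppp1r3a over Ppp1r3c was -0.62 ± 0.22, the larger value being that of the widely expressed gene in both libraries. The liver targeting gene Ppp1r3b was at 12.2 and 13.2 TPM and Ppp1r3d at 9.26 and 8.82 TPM, whereas Ppp1r3f and Ppp1r3g were below 1 TPM.

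Counted over 17 pairs that set a muscle form, or for the PFKFB genes the heart form Pfkfb2, against another form, the former was higher by at least 1 log2 unit in both libraries in 13. Pygm over Pygb, Phka1 over Phka2 and Ppp1r3a over Ppp1r3c were under that size, and Phkg1 over Phkg2 was turned. Only 11 of the 17 pairs have both genes at 1 TPM or more, and 7 of these 11 were apart in that direction. Pfkfb1, itself expressed in skeletal muscle, counts as the other form in its pair. Where the second gene is near 0, as with Pklr and Gys2, the ratio depends on the pseudocount. No p is given, since 2 values cannot give an exact sign-flip p below 0.5.

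**Figure D4:**
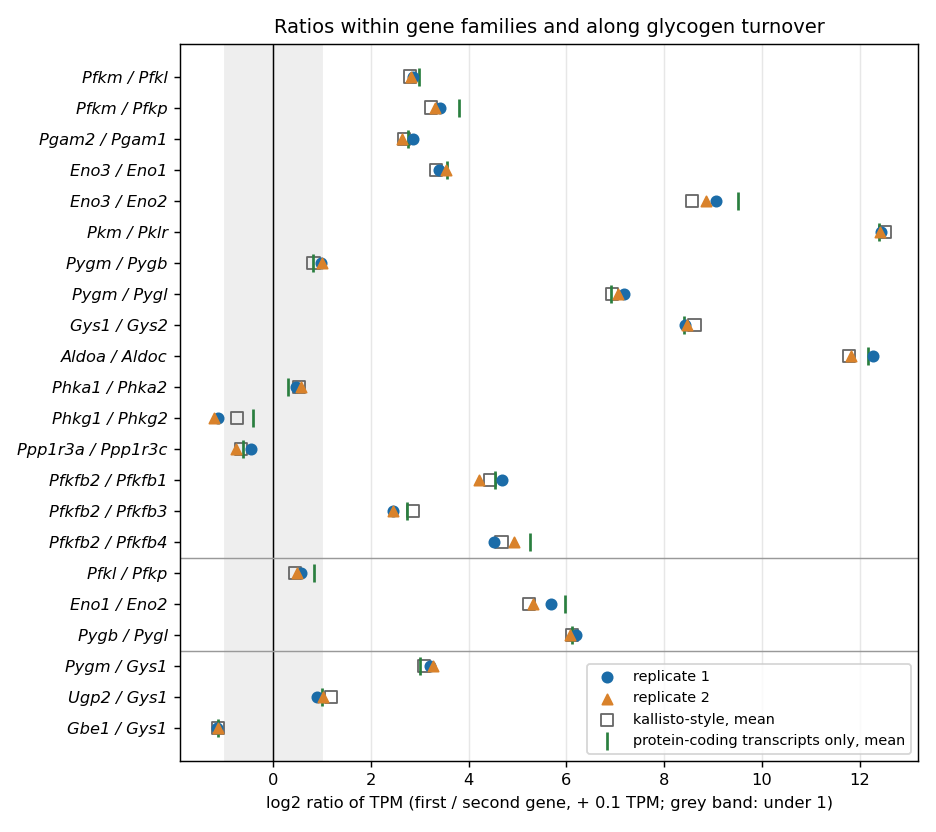
Log2 ratio of TPM + 0.1 between the first and the second gene of 22 pairs, in blocks of 16 muscle or heart forms against others, 3 pairs of nonmuscle forms and 3 pairs along glycogen turnover. Circles and triangles are replicates 1 and 2, squares the kallisto-style mean and green marks the mean over protein-coding transcripts. The grey band marks ratios under 1 in size: Pygm over Pygb lies at its edge, and Phkg1 over Phkg2 and Ppp1r3a over Ppp1r3c lie left of 0.

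Of 40 other genes of glycolysis and glycogen metabolism, 31 reached 1 TPM in both libraries, with medians of 8.56 and 8.23 TPM. Hexokinase, which feeds glucose into the pathway, was led by Hk2 (77.5 and 87.1 TPM). Among lactate dehydrogenase genes Ldhb was the higher (834 and 831 TPM), and Pgm1, which links glycogen to glycolysis, was at 98.8 and 96.1 TPM. Bpgm, best known from red blood cells, was at 49.9 TPM in both libraries, and the part of blood in that level was not tested. Fbp2, the muscle bisphosphatase, was at 19.4 and 15.6 TPM. Of the phosphatase catalytic genes, Ppp1cb was at 193 and 195 TPM and Ppp1ca at 164 and 166 TPM. Ppp1ca was the higher with protein-coding transcripts only (mean 98.5 against 46.5 TPM) and in the kallisto-style table (212 against 180.3 TPM). Hk3, Gapdhs, Pgk2, Eno4, Fbp1, G6pc, Ppp1r3f and Ppp1r3g were below 1 TPM in both libraries.

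The libraries were compared gene by gene with a 2-sided exact binomial test on counts, which compares these libraries and not conditions. Of the 33 genes, 30 had enough counts (10 in each library or 20 in total). Of these 30, 0 passed at an adjusted p under 0.05 and a 2-fold difference, against 3.17% of all 16611 genes tested (2.44% higher in replicate 2 and 0.728% higher in replicate 1). At an unadjusted p under 0.05 there were 14 of the 30, against 31.1% of all genes. The test passes smaller ratios at higher counts, so that shares passing without a minimum ratio depend on the counts of the genes. The median absolute log2 ratio was 0.07 for the 30 genes and 0.14 for all. Among genes with at least 1000 counts in total, it was 0.06 over 24 of the 30 and 0.08 over all 7401 genes. The widest were Eno2, with a log2 ratio of replicate 2 over replicate 1 of -0.32, and Pfkfb1 at 0.63 (exact 95% interval -0.01 to 1.29, adjusted p = 0.175 by the exact binomial test).

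At any size of difference, 14 of the 30 passed an adjusted p under 0.05, against 21.6% of all genes tested. These shares are not matched for counts: 24 of the 30 had at least 1000 counts in total, against 7401 of the 16611. They do not show that the 30 genes differed more than others. Of the 14, Pgam1 (0.14), Ppp1r3c (0.19) and Pfkfb2 (0.21) were higher in replicate 2, and 11 genes in replicate 1. Pgam2, at a log2 ratio of -0.09, was among the latter, so that both mutase genes passed in opposite directions. This split depended on scaling: with total counts in place of TMM, 4 were higher in replicate 2 and 4 in replicate 1. Of the 40 other pathway genes, not all of which had enough counts, only Pck1 passed with the 2-fold minimum. Of all 16611 genes tested, 3.17% passed it, so that this 1 gene is no result about the list. Pck1, a gene of glucose synthesis known from liver and fat, was named after its values were seen. Pck1 had 602 counts in replicate 1 and 258 in replicate 2, a log2 ratio of -1.5 (adjusted p = 1.21e-46 by the exact binomial test). The summed TPM of 4 adipocyte markers was also higher in replicate 1 (10.9 against 6.36). All were at 4.19 TPM or less, and Lep went the other way (0.120 against 0.410 TPM). The part of adipocytes in the Pck1 difference was not tested.

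**Figure D5:**
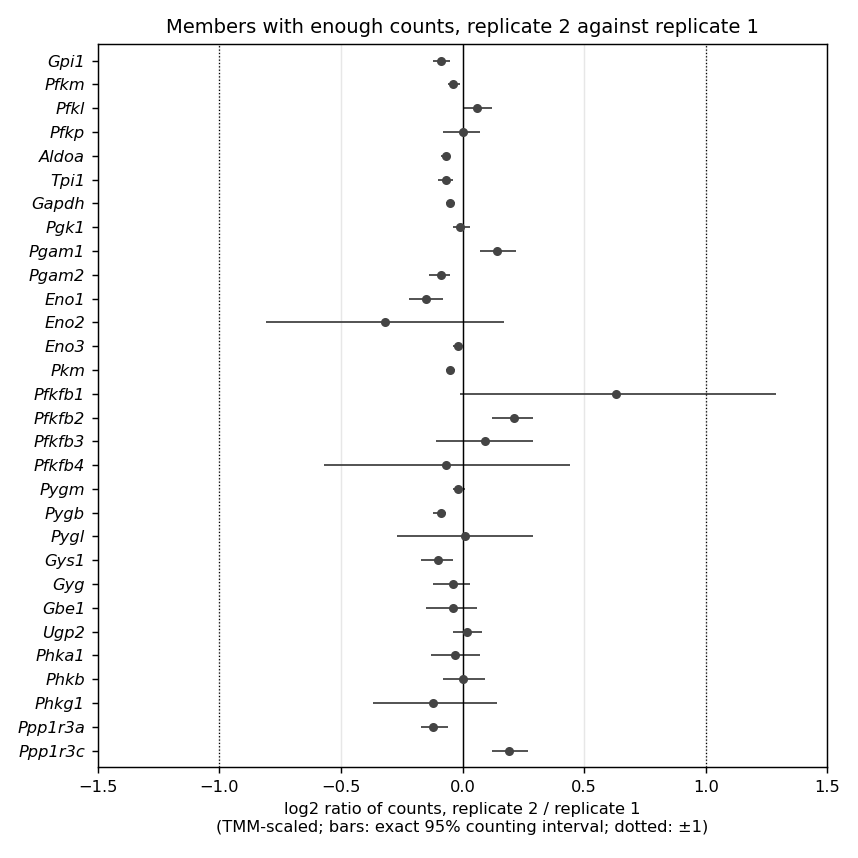
Log2 ratio of TMM-scaled counts, replicate 2 over replicate 1 (horizontal axis), for the 30 genes with enough counts. Points are ratios, bars are exact 95% counting intervals and dotted lines mark a 2-fold difference. No point passes the dotted lines, and the widest interval is that of Pfkfb1.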

How the data were processed

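Total RNA of 2 heart libraries was quantified by the authors against mm10 with annotation M21, per the labels and the notes deposited with the files. The versions of the quantification tools were not given in the sources used here. The deposited RSEM-style tables hold expected counts and TPM per gene and transcript, and the authors' kallisto-style tables give TPM and estimated counts of transcripts, summed here per gene. Gene names, exons and transcript sequences came from GENCODE M21, and promoters from RefSeq. Gene TPM of the RSEM-style table was the main value. Ratios used a pseudocount of 0.1 TPM, and detection meant 1 TPM in both libraries. Expected counts were rounded, scaled by TMM (edgeR 4.0.16) and compared between libraries by an exact binomial test (scipy 1.17.1) with Benjamini-Hochberg adjustment over all genes with 10 counts in each library or 20 in total. The test was checked on simulated counts that varied by counting error only, so the check does not cover other variation between libraries. Spike-ins and numbered identifiers (0.870 and 2.84 counts) stayed out. Named were the 33 genes, the pair genes, and other pathway genes below 1 TPM or highest in their step. Also named were copies sharing at least 50% of the 31-base words at 1 TPM or more. Transcripts were named at 10% or more of a gene's TPM. Pgam1-ps2, Gm13394, Gm14760, Gm12070, Pck1 and a few other pathway genes were added after their values were seen. The genes and lists were chosen with earlier results of these data known. Intervals and floors cover counting error only. DESeq2 1.42.0 size factors served as an alternative. Some genes of the pair and pathway lists enter the counts and are not reported here by name.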

Additional observations from a re-analysis of the deposited data

How the results depend on the processing

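Counting pairs with both genes at 1 TPM or more gave 7 of 11 in place of 13 of 17 muscle or heart pairs apart, and the other alternatives, including 2 chosen after seeing the data (counts per kb of the longest coding transcript, and near-identical copies added), gave 13. Over 24 pairs, 168 alternative ratios were computed beside leaving out a replicate: 84 moved by less than the spread between the libraries, 84 moved by more and 0 changed sign. The 84 that moved by less include 22 with near-identical copies added. Most pairs hold no gene with such copies, so their ratios could not move in that setting. The share of TPM was 1.04% in the kallisto-style table and 1.59% of nuclear protein-coding TPM, against 0.671%. The M1 share of Pkm was 44.8% in the kallisto-style table and 48.9% by expected counts, which are not divided by length, against 53.1%. Over the full-length transcripts of the kallisto-style table, a setting chosen after seeing the data, the M1 share was 49.6%. Without a minimum of the ratio, 14 of the 30 genes tested differed between the libraries, and 3588 (21.6%) of all 16611. Neither share is matched for counts. With the minimum, the numbers were 0 of the 30 and 526 (3.17%) of the 16611. Scaling by DESeq2 size factors or total counts gave 525 and 552 of the 16611 genes. With no filter on low counts there were 593 of 25773, and with kallisto-style counts 519 of 17715. In each of these settings, 0 of the 33 genes were called. With either replicate left out, the pair count was 13, the genes detected were 28 to 29, the share of TPM was 0.668% to 0.675% and the M1 share was 51.6% to 54.5%. No paired analysis was possible because there is 1 group. Depth limits the values of Pklr, Gys2, Aldoc, Pfkfb1, Pfkfb4 and Eno2, and division among transcripts those of Gapdh, Pkm, Pfkfb2, Gyg and Gbe1, among others.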
